A study of Mus musculus with 24 samples.

Results

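The SLC25 family comprises the mitochondrial solute carriers, and its genes were followed here in livers of mice with NASH (steatohepatitis, in which fat, inflammation and scarring build up in the liver). Members were all rows of the expression table whose gene symbol is Slc25a followed by a number, except Slc25a20, the carnitine carrier. This rule gave 42 of the 14293 genes in the table, and it used no expression value. Of the 42 members, 38 reached at least 0.5 FPKM in at least 8 of the 24 samples and were tested among 11562 genes, while 4 members (Slc25a2, Slc25a35, Slc25a43 and Slc25a53) stayed below that level.

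RNA was measured by paired-end sequencing of 24 liver samples in 3 groups of 8, given vutiglabridin, semaglutide or vehicle. Vutiglabridin is a synthetic relative of glabridin, a licorice flavonoid, and is named in the title of the series as a paraoxonase-2 agonist. Semaglutide activates the GLP-1 receptor, and the vehicle group received the carrier without drug. All 3 groups share the NASH background, and the sources used here do not give the strain, sex, age, diet, dose or duration. The labels do not say that the 8 samples of a group came from separate animals, so the p-values speak only of the spread among these samples, part of which may be technical.

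SLC25 proteins are encoded in the nucleus, made in the cytosol, and inserted into the inner mitochondrial membrane by the TIM22 import machinery. Most exchange a solute of the matrix for one of the cytosol, such as ADP for ATP, citrate for malate, or aspartate for glutamate. In hepatocytes they link glycolysis, lipogenesis, gluconeogenesis and the urea cycle to the mitochondrial matrix, and a few members act in peroxisomes or in the outer mitochondrial membrane.

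FPKM (the fragment count of a gene divided by its transcript length and the library total) is a level per length, so members can be ranked by it. The vehicle means fell into 4 bands. At least 100 FPKM was reached by 4 members, 17 members lay from 10 to under 100 FPKM, 13 lay from 1 to under 10 FPKM, and 8 lay under 1 FPKM. Slc25a5, an ADP/ATP translocase, led with 258 ± 17.6 FPKM in vutiglabridin livers, 233 ± 19.2 FPKM in semaglutide livers and 245 ± 17.6 FPKM in vehicle livers (SD, n = 8 each), and its vehicle mean ranked 164 of 14293 in the table. Slc25a47, a liver-enriched carrier, followed with 200 ± 25.7, 207 ± 22.7 and 228 ± 38.2 FPKM in the vutiglabridin, semaglutide and vehicle groups. Slc25a39, needed for mitochondrial glutathione import, had 150 ± 16.8, 151 ± 18.1 and 143 ± 9.29 FPKM in the vutiglabridin, semaglutide and vehicle groups. Slc25a1, the citrate carrier, had 121 ± 16.4 FPKM with vutiglabridin, 116 ± 3.58 FPKM with semaglutide and 102 ± 10.1 FPKM with vehicle. Of the 41 pairs of neighbours in the order of vehicle means, 3 had vehicle ranges that did not overlap (among them Slc25a39 above Slc25a1 and Slc25a10 above Slc25a13), and for the other pairs the order lay within the spread of the samples.

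**Figure D1:**
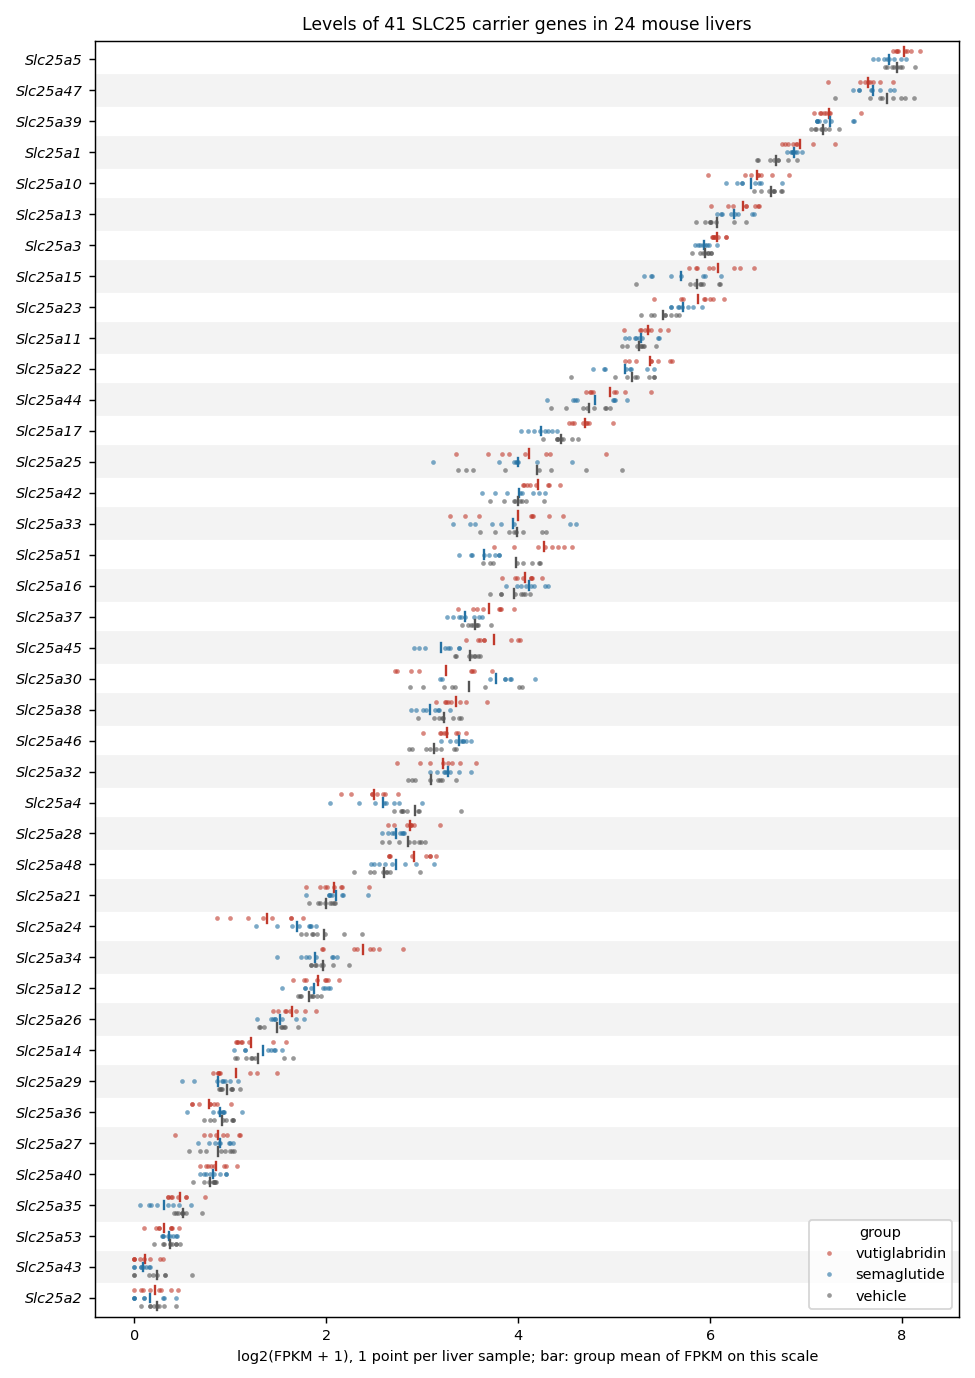
Level of 41 of the 42 SLC25 genes in 24 livers, on a log2(FPKM + 1) axis, with 1 point per sample (vutiglabridin red, semaglutide blue, vehicle grey) and a bar at each group mean. The levels span from Slc25a5, with a vehicle mean of 245 FPKM, to Slc25a2, with 0.175 FPKM, and the coefficient of variation in vehicle livers is widest among tested members for Slc25a25, at 48.0%.

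Summed over the 42 members, the level was 1407 ± 72.8 FPKM in vutiglabridin livers, 1312 ± 67.0 FPKM in semaglutide livers and 1337 ± 78.4 FPKM in vehicle livers (SD, n = 8 each), and the 3 groups overlapped. As a share of all FPKM in the table this was 0.382% with vutiglabridin, 0.382% with semaglutide and 0.405% with vehicle. The 3 most abundant members of a library held 43.2%, 44.9% and 46.1% of the family sum in the vutiglabridin, semaglutide and vehicle groups, and the 10 most abundant held 80.3%, 81.4% and 81.1%. Pairs of close relatives were very unequal in these livers. Slc25a40 made up 0.545%, 0.519% and 0.506% of its sum with the glutathione carrier Slc25a39 in the vutiglabridin, semaglutide and vehicle groups. Slc25a12 (aralar) made up 3.36% with vutiglabridin, 3.48% with semaglutide and 3.74% with vehicle of its sum with Slc25a13 (citrin). The mitoferrins, which carry iron, were closer, with Slc25a28 at 34.7%, 36.2% and 36.7% of its sum with Slc25a37 in the vutiglabridin, semaglutide and vehicle groups.

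The spread within the vehicle group differed widely between members. Among the 38 tested members the coefficient of variation in vehicle livers ran from 4.60% for Slc25a3, the phosphate carrier, to 48.0% for Slc25a25, an ATP-Mg/phosphate carrier. Slc25a25 ran from 9.21 to 29.1 FPKM (median 14.9) in vutiglabridin livers, from 7.61 to 22.7 FPKM (median 14.8) in semaglutide livers and from 9.36 to 32.8 FPKM (median 15.5) in vehicle livers, so the groups overlapped almost wholly. Extreme values were not spread evenly over the samples. Vutiglabridin replicate 3 held the lowest value of its group in 11 of the 38 tested members and the highest in 0, vehicle replicate 7 held the lowest in 12, and vehicle replicate 8 held the highest in 11.

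Some facts of the whole series touch all results. Implied depth, read from the step that 1 fragment makes in low FPKM values, was 5.75 to 15.1 M (mega) fragments per library with vutiglabridin, 9.16 to 12.3 M with semaglutide and 11.8 to 19.8 M with vehicle, and vutiglabridin replicate 7 was the shallowest. All 114344 semaglutide cells of the table carry a trailing space that no other column has. The table lists 3 gene symbols, none of them members, on more than 1 row. In semaglutide 3 of these had identical values on their rows in all samples, against 0 in vutiglabridin and 0 in vehicle. Semaglutide and any difference in how its columns were made thus cannot be told apart. Markers of some other liver cells moved with 1 or both drugs. Of 15 macrophage markers, 10 fell with vutiglabridin and 7 with semaglutide, with summed levels of 281 to 596 FPKM in vutiglabridin livers, 371 to 615 FPKM in semaglutide livers and 489 to 1057 FPKM in vehicle livers. Of 12 stellate cell and matrix markers, 6 fell with vutiglabridin and 7 with semaglutide, with sums of 104 to 172 FPKM in vutiglabridin livers, 108 to 169 FPKM in semaglutide livers and 167 to 261 FPKM in vehicle livers. Of 10 hepatocyte markers, 3 rose with vutiglabridin and 5 with semaglutide. Of 7 endothelial markers, 1 rose with vutiglabridin and 2 with semaglutide, and 0 fell with either. Of 6 tested cholangiocyte markers, 2 fell with vutiglabridin and 0 passed with semaglutide. The gene Spp1 stands on both the macrophage and the cholangiocyte list, so these lists are not separate. Of 5 tested lymphocyte markers, 3 fell with vutiglabridin and 0 passed with semaglutide. Over all genes tested, 6.53% rose and 8.78% fell with vutiglabridin, and 14.3% rose and 12.7% fell with semaglutide. None of these markers was at 0 in all samples. In bulk tissue, fewer cells of a type and less RNA per cell cannot be told apart, and the part of cell makeup in the differences below was not tested.

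Each comparison was tested with limma on log2(FPKM + 1), with p-values adjusted by the Benjamini-Hochberg method over all 11562 genes and a threshold of 0.05. Differences are given on that log2 scale with their standard error (SE), and they understate the change of low genes. With vutiglabridin against vehicle, 7 of 38 members (18.4%) rose and 2 (5.26%) fell, where 6.53% of all genes tested rose and 8.78% fell (15.3% in either direction). The median difference was 0.11 over the members and 0.01 over all genes. With semaglutide against vehicle, 2 members (5.26%) rose and 4 (10.5%) fell, where 14.3% of all genes rose and 12.7% fell (27.0% in either direction), and the medians were -0.02 for the members and -0.01 for all genes. Between the drugs, 9 members (23.7%) were higher with vutiglabridin and 2 (5.26%) lower, where 11.9% of all genes were higher and 12.6% lower (24.4% in either direction), with medians of 0.09 and 0.01. Of the 38 tested members, 17 passed in at least 1 comparison, 7 of them in 2 comparisons and Slc25a17 in all 3, and 21 passed in none. The 2 comparisons with vehicle share the vehicle samples, and each pair of comparisons shares a group, so calls in several comparisons are not independent.

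**Figure D2:**
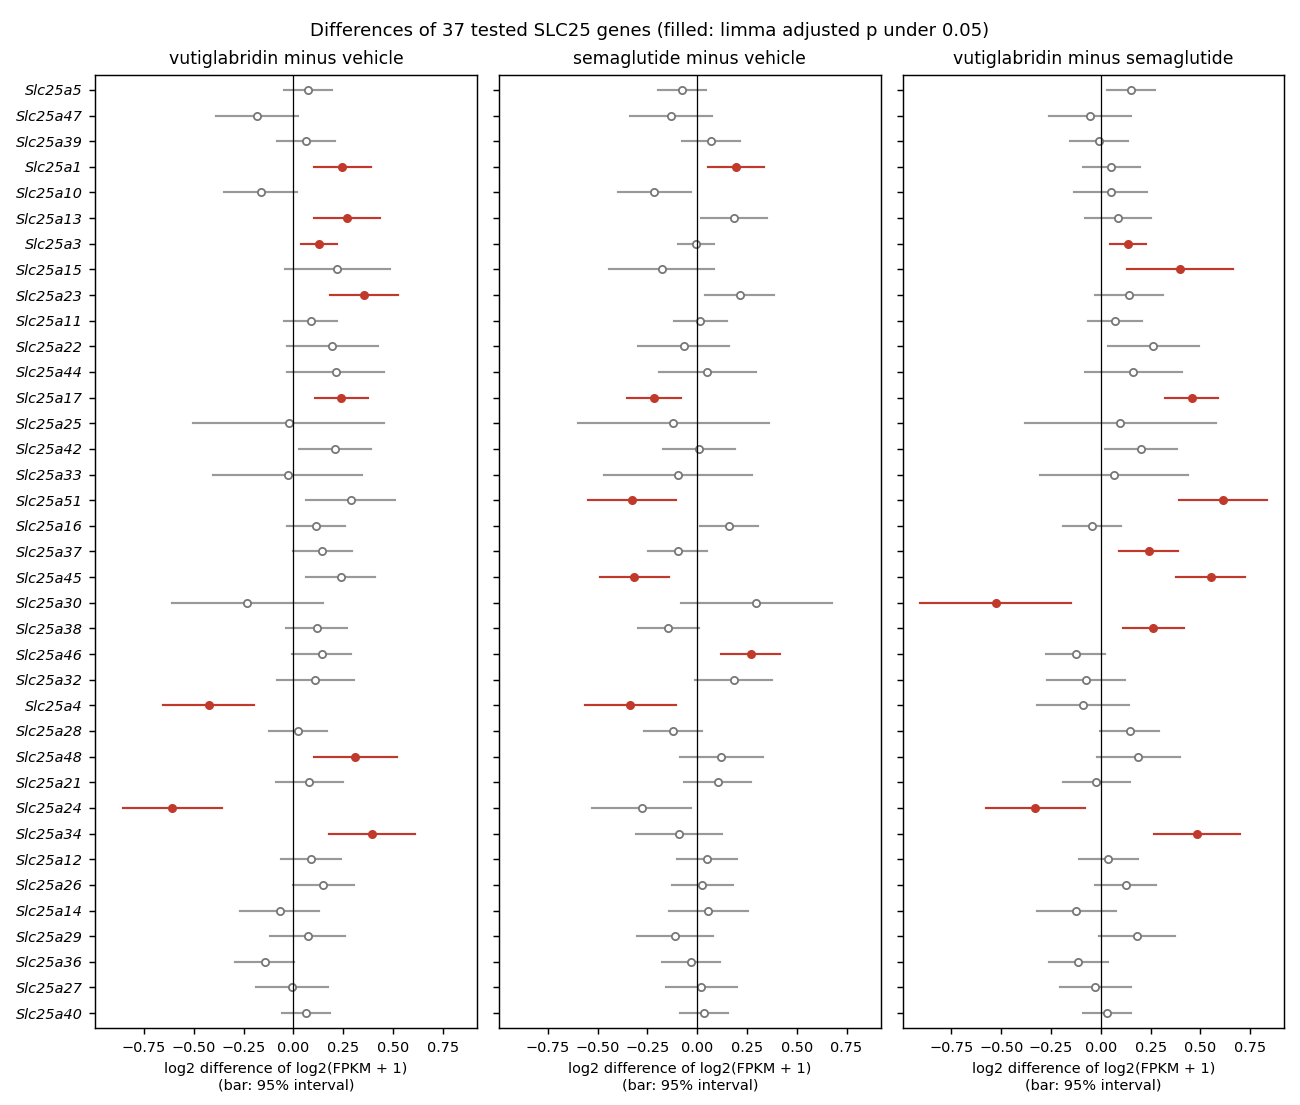
Difference in log2(FPKM + 1) of 37 of the 38 tested SLC25 genes in 3 comparisons, with 95% intervals from limma, ordered by vehicle level. Filled red points passed an adjusted p of 0.05: 7 higher and 2 lower for vutiglabridin minus vehicle, 2 higher and 4 lower for semaglutide minus vehicle, and 8 higher and 2 lower for vutiglabridin minus semaglutide. After rescaling to equal totals the first counts become 0 higher and 5 lower, where 233 of all genes are higher and 2731 lower.

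The counts of higher members depended on the scaling between libraries. Rescaling each library to the same total over the listed genes (TPM) moved the median of all genes to -0.13 for vutiglabridin minus vehicle, -0.07 for semaglutide minus vehicle and -0.08 for vutiglabridin minus semaglutide. The member medians then were -0.03, -0.08 and -0.01. The new total also exceeded the deposited totals while the same 1 was added before the log. Differences of low genes were thus damped less on that scale, apart from the equal totals. On that scale 0 members were higher and 5 lower with vutiglabridin against vehicle, and 233 of all genes were higher and 2731 lower. Relative to the shifted median, the members of that comparison still lay about as far above all genes as before. Semaglutide against vehicle then gave 1 member higher and 7 lower, with 1202 of all 11562 genes higher and 2116 lower. The drugs against each other gave 5 higher and 3 lower, with 596 of all genes higher and 2264 lower. Quantile normalization gave 2 higher and 4 lower for vutiglabridin against vehicle, with 538 of all genes higher and 848 lower. Among the calls that passed under each of the 15 alternatives tried were Slc25a4 and Slc25a24 (vutiglabridin against vehicle), Slc25a17, Slc25a46 and Slc25a51 (semaglutide against vehicle), and Slc25a17, Slc25a34, Slc25a45 and Slc25a51 (vutiglabridin against semaglutide).

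**Figure D3:**
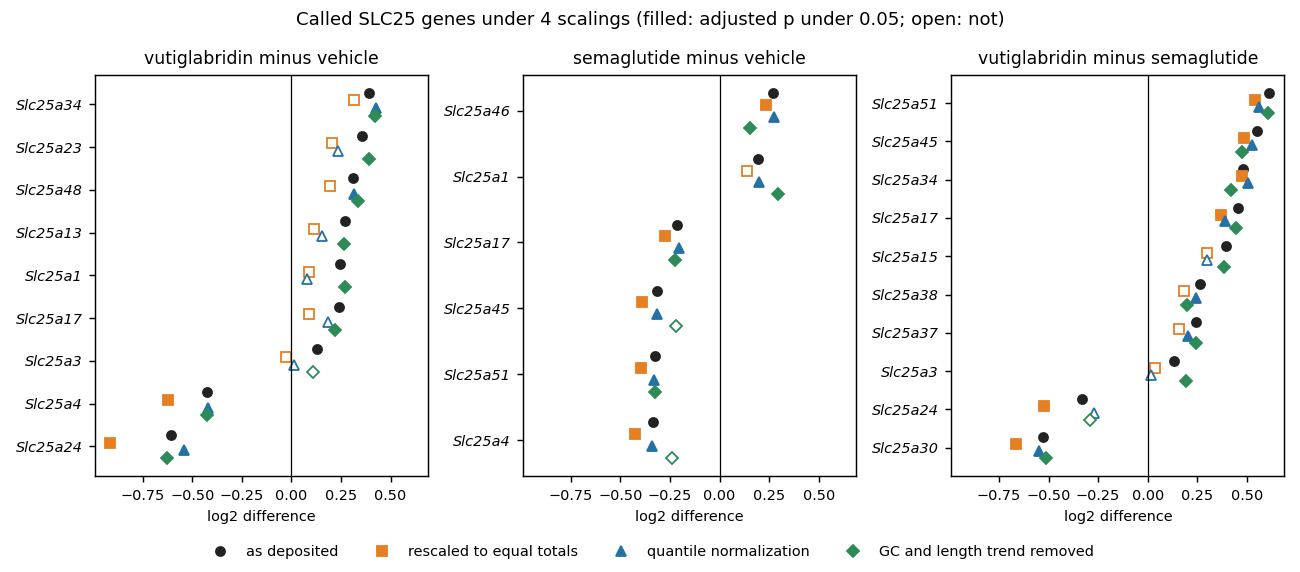
Difference in log2 units of the called SLC25 genes under 4 scalings (black circles: as deposited, orange squares: rescaled to equal totals, blue triangles: quantile normalization, green diamonds: trend with GC content and length removed), filled where the adjusted p was under 0.05. Rescaling to equal totals leaves the 7 genes that rose with vutiglabridin against vehicle unfilled and turns Slc25a3 to -0.027, while Slc25a4 and Slc25a24 stay filled below 0 under all 4.

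Sequence before the RefSeq start is shown for members picked after their values were seen. Slc25a17 and Slc25a45 had drug groups that did not overlap, and Slc25a24 and Slc25a4 fell with vutiglabridin. Each run is the 250 bases before the RefSeq start of the gene on GRCm38.p6, read 5′ to 3′ on the gene's strand. In GENCODE M21 the genes start at 46211284 (Slc25a4), 81360812 (Slc25a17) and 5877808 (Slc25a45), each within its window. Part of these windows thus lies inside the annotated gene. For Slc25a4 this part is most of the window and holds both marked CCAAT boxes. Capitals mark the SP1 box (GGGCGG or its complement CCGCCC) and the CCAAT box (CCAAT, either strand), the 2 of 7 motifs searched that occur in these windows.
Slc25a17 (chr15:81360766-81361015, minus strand): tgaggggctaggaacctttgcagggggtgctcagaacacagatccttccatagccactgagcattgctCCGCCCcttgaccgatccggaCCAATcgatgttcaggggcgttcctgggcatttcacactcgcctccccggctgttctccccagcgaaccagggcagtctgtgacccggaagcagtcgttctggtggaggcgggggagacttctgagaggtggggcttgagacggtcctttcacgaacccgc
Slc25a45 (chr19:5877572-5877821, plus strand): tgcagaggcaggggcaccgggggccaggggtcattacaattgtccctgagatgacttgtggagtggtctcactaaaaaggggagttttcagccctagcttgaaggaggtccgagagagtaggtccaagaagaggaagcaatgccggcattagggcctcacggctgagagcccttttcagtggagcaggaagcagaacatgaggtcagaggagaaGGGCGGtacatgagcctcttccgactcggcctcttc
Slc25a24 (chr3:109122899-109123148, plus strand): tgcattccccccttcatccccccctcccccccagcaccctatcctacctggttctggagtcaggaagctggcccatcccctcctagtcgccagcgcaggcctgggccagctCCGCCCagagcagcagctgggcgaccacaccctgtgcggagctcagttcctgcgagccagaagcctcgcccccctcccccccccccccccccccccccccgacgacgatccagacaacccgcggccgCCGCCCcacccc
Slc25a4 (chr8:46211063-46211312, minus strand): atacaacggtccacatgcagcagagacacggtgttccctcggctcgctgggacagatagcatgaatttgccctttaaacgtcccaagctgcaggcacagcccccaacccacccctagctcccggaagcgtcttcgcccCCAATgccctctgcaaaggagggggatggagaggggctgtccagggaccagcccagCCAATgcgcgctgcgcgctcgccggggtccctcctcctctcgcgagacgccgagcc

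These 4 windows were 61.2% (Slc25a17), 56.4% (Slc25a45), 72.8% (Slc25a24) and 64.8% (Slc25a4) G or C. A RefSeq window was found for 32 of the 42 members, and none for Slc25a51 among others. Of these 32 windows, 68.8% held the SP1 box on either strand, against 32.9% of all 27025 windows and 56.7% of the 11198 windows of genes in the expression table. The CCAAT box was in 50% of member windows, against 34.5% of all windows and 36.3% of those of table genes. The E-box CACGTG was in 15.6% (Slc25a1, Slc25a13, Slc25a14, Slc25a33 and Slc25a36), against 6.05% and 8.00%. The TATA box TATAAA was in 0 member windows, against 13.0% and 7.04%. The ETS site CCGGAAGT and the HNF4 site CAAAGTCCA were each in 0 member windows, against 2.93% and 0.381% of all windows and 5.54% and 0.42% of those of table genes, and the sterol element core CACCCCAC was in 1 (Slc25a36). The median G and C content was 59.2% in member windows and 59.2% in those of table genes. A match is a run of letters and not a measured binding site.

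The carriers of adenine nucleotides, phosphate and coenzyme A were 9 members, all tested, and they moved in both directions with vutiglabridin: 3 rose (Slc25a23, Slc25a17 and Slc25a3) and 2 fell (Slc25a24 and Slc25a4) against vehicle. Slc25a24, a calcium-regulated ATP-Mg/phosphate carrier (chromosome 3, 109123149 to 109168457, plus strand, GENCODE M21 on GRCm38), had 0.81 to 2.39 FPKM (median 1.62) in vutiglabridin livers, 1.40 to 2.71 FPKM (median 2.405) in semaglutide livers and 2.32 to 4.18 FPKM (median 2.695) in vehicle livers. The vehicle mean lay above all 8 vutiglabridin samples, and the groups touched only where the highest vutiglabridin sample passed the lowest vehicle sample. The difference from vehicle was -0.61 ± 0.12 with vutiglabridin (limma adjusted p = 0.00131) and -0.28 ± 0.12 with semaglutide (adjusted p = 0.0899). Its close relative Slc25a23, with the same kind of cargo but a vehicle mean of 44.6 FPKM, moved the other way with vutiglabridin. Slc25a23 had 41.6 to 69.5 FPKM (median 60.5) in vutiglabridin livers, 47.3 to 59.5 FPKM (median 50.7) in semaglutide livers and 37.8 to 50.1 FPKM (median 45.3) in vehicle livers. It was above the vehicle mean in 7 of 8 vutiglabridin samples and 8 of 8 semaglutide samples, with differences of 0.36 ± 0.08 (adjusted p = 0.00501) and 0.21 ± 0.08 (adjusted p = 0.0590). Slc25a24 thus made up 2.89% ± 1.44 of the sum of both genes in vutiglabridin livers, 4.17% ± 0.884 in semaglutide livers and 6.29% ± 1.85 in vehicle livers (SD, n = 8 each), a share that a single factor per library leaves as it is. The call for Slc25a24 between the drugs (-0.33 ± 0.12, adjusted p = 0.0475) was lost in 10 of 15 alternatives, for example at an adjusted p of 0.101 without vutiglabridin replicate 1, 0.0798 without vutiglabridin replicate 7, 0.056 without vutiglabridin replicate 4 and 0.0522 without vehicle replicate 3. The rise of Slc25a23 with vutiglabridin ended at adjusted p = 0.053 after rescaling to equal totals and 0.0545 after quantile normalization. With semaglutide against vehicle, both genes passed in the fit to those 2 groups alone (limma adjusted p = 0.0193 for Slc25a23 and 0.0438 for Slc25a24). Both also passed there with the trend with GC content and length removed (adjusted p = 0.0188 and 0.0447).

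Of the ADP/ATP translocases, which exchange cytosolic ADP for matrix ATP, the abundant Slc25a5 passed in no comparison and the minor Slc25a4 fell with both drugs. Slc25a4 had 3.46 to 5.70 FPKM (median 4.68) in vutiglabridin livers, 3.10 to 6.99 FPKM (median 5.105) in semaglutide livers and 5.51 to 9.55 FPKM (median 6.065) in vehicle livers. Below the vehicle mean lay 8 of 8 vutiglabridin samples and 7 of 8 semaglutide samples, and both drug groups overlapped with vehicle. The differences from vehicle were -0.43 ± 0.11 with vutiglabridin (limma adjusted p = 0.0108) and -0.33 ± 0.11 with semaglutide (adjusted p = 0.0275). Vehicle replicate 7 held the highest Slc25a4 value, and without it the semaglutide difference was -0.26 (adjusted p = 0.0673). Removing the trend with GC content and length gave -0.24 (adjusted p = 0.0893) for semaglutide. Slc25a4 made up 1.76% ± 0.296 of the sum with Slc25a5 in vutiglabridin livers, 2.12% ± 0.464 in semaglutide livers and 2.64% ± 0.620 in vehicle livers (SD, n = 8 each). A processed copy of Slc25a5 exists in the mouse genome, so reads of that gene may have been split.

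Slc25a17 (chromosome 15, 81318911 to 81360812, minus strand, GENCODE M21 on GRCm38), a peroxisomal carrier of coenzyme A and related cofactors, was the member that passed in all 3 comparisons, higher with vutiglabridin and lower with semaglutide than with vehicle. It had 22.1 to 30.7 FPKM (median 24.9) in vutiglabridin livers, 15.3 to 20.1 FPKM (median 18.0) in semaglutide livers and 18.2 to 23.7 FPKM (median 20.5) in vehicle livers. All 8 vutiglabridin samples lay above all 8 semaglutide samples, while the vehicle samples overlapped with both. The difference was 0.46 ± 0.07 between the drugs (limma adjusted p = 2.07e-05), 0.24 ± 0.07 for vutiglabridin against vehicle (adjusted p = 0.0138) and -0.22 ± 0.07 for semaglutide against vehicle (adjusted p = 0.0161). Rescaling to equal totals lowered the difference between vutiglabridin and vehicle to 0.09 (adjusted p = 0.339), and quantile normalization to 0.18 (adjusted p = 0.0718). Groups without overlap occurred in 2 of 38 members between the drugs (Slc25a17 and Slc25a45), where 3.4% of all genes tested showed it (1.13% with vutiglabridin higher and 2.27% with it lower). It occurred in 1 member (Slc25a3) between vutiglabridin and vehicle, where 1.74% of all genes showed it (0.77% higher and 0.969% lower). Between semaglutide and vehicle it occurred in 0 members, where 5.83% of all genes showed it (4.09% higher and 1.74% lower).

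Slc25a3, the phosphate carrier that supplies ATP synthase and also delivers copper, showed small differences with little spread. It had 63.8 to 70.6 FPKM (median 65.1) in vutiglabridin livers, 56.3 to 66.3 FPKM (median 60.1) in semaglutide livers and 55.3 to 63.6 FPKM (median 61.3) in vehicle livers. Every vutiglabridin sample lay above every vehicle sample. The difference was 0.13 ± 0.04 against vehicle (limma adjusted p = 0.0435) and 0.14 ± 0.04 against semaglutide (adjusted p = 0.0239). The call against semaglutide ended after rescaling to equal totals (0.035, adjusted p = 0.549), after quantile normalization (0.018, adjusted p = 0.756) and in the fit to those groups alone (adjusted p = 0.0535). The call against vehicle was lost in 11 of 15 alternatives, with -0.027 (adjusted p = 0.626) after rescaling to equal totals, and an adjusted p of 0.0555, 0.0891, 0.0709, 0.0694 and 0.1 without vutiglabridin replicates 7, 1 or 4 or vehicle replicates 3 or 7. Of the other members of this group, Slc25a42, a coenzyme A carrier, had means of 17.4 ± 1.85, 15.1 ± 2.48 and 14.9 ± 1.83 FPKM in the vutiglabridin, semaglutide and vehicle groups, and Slc25a16 had 15.8 ± 1.50, 16.3 ± 1.74 and 14.5 ± 1.56 FPKM in those groups in the same order (SD, n = 8 each). Neither passed in any comparison, and for Slc25a42 all 8 vutiglabridin samples lay above the vehicle mean (0.21 ± 0.09, adjusted p = 0.110). With the trend with GC content and length removed, Slc25a42 passed in that comparison (0.24, limma adjusted p = 0.0452).

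**Figure D4:**
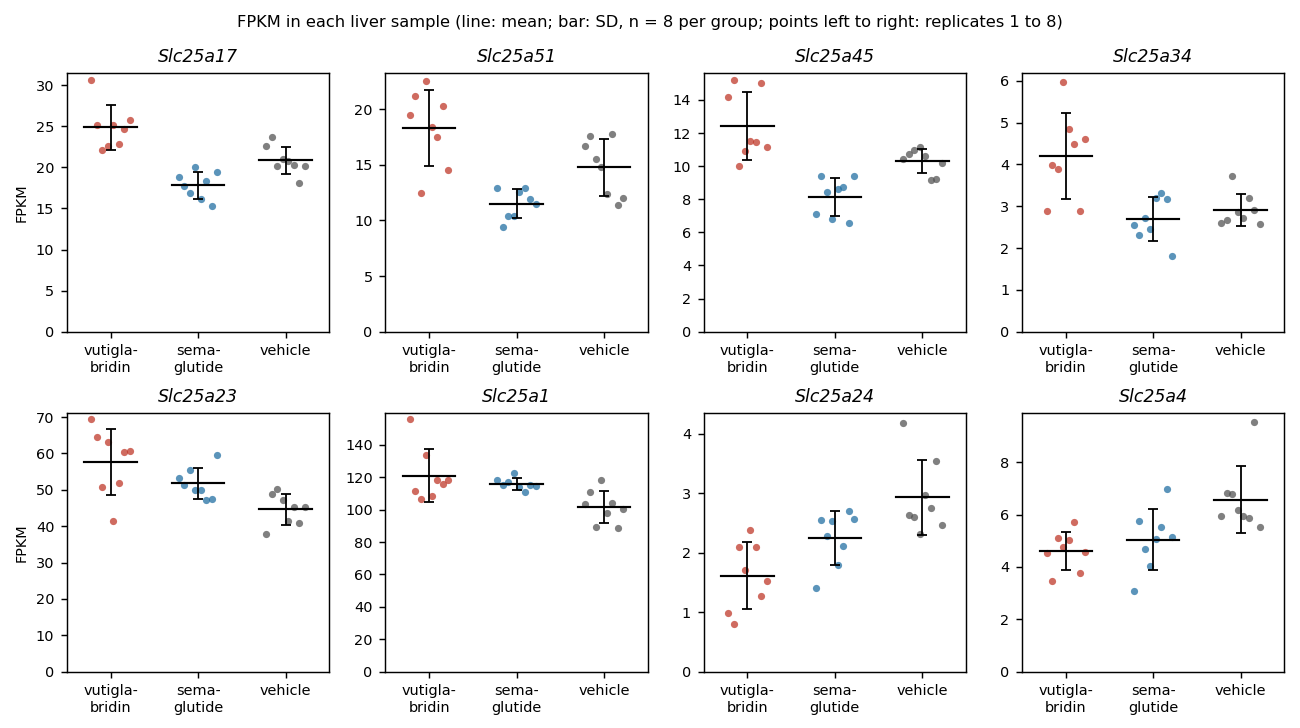
FPKM of 8 SLC25 genes in each liver sample, with the group mean (line) and SD (bar, n = 8), and with vutiglabridin, semaglutide and vehicle from left to right in each panel on axes that start at 0. The drug groups are separate for Slc25a17 and Slc25a45, Slc25a51 is lowest with semaglutide at a mean of 11.5 FPKM, and Slc25a24 and Slc25a4 are highest with vehicle at 2.94 and 6.58 FPKM.

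The carriers of di- and tricarboxylates were 4 members, all tested, and Slc25a1 rose with both drugs while Slc25a10, Slc25a11 and Slc25a21 passed in no comparison. Slc25a1 exports citrate, the source of cytosolic acetyl-CoA for fatty acid synthesis. It had 106 to 156 FPKM (median 117) in vutiglabridin livers, 111 to 123 FPKM (median 115) in semaglutide livers and 88.6 to 118 FPKM (median 102) in vehicle livers. All 8 samples of each drug lay above the vehicle mean, although the ranges overlapped. The differences from vehicle were 0.25 ± 0.07 with vutiglabridin (limma adjusted p = 0.0168) and 0.19 ± 0.07 with semaglutide (adjusted p = 0.0381). Rescaling to equal totals gave 0.09 (adjusted p = 0.29) and 0.14 (adjusted p = 0.0898), and quantile normalization gave 0.08 (adjusted p = 0.437) for vutiglabridin. The semaglutide call also ended without vehicle replicate 3 (0.17, adjusted p = 0.084) and without vehicle replicate 7 (0.17, adjusted p = 0.0837). Slc25a10, which exchanges malate or succinate for phosphate, had means of 88.7 ± 14.3, 85.2 ± 11.0 and 98.5 ± 6.74 FPKM in the vutiglabridin, semaglutide and vehicle groups (SD, n = 8 each), and its differences from vehicle were -0.16 ± 0.09 with vutiglabridin (adjusted p = 0.229) and -0.21 ± 0.09 with semaglutide (adjusted p = 0.0746). After rescaling to equal totals Slc25a10 passed as lower with both drugs, at -0.32 with vutiglabridin (adjusted p = 0.00718) and -0.27 with semaglutide (adjusted p = 0.0179). Slc25a11, the oxoglutarate/malate carrier of the malate-aspartate shuttle, had 39.7 ± 3.94 FPKM with vutiglabridin, 37.8 ± 3.51 FPKM with semaglutide and 37.3 ± 2.87 FPKM with vehicle.

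Among the amino acid carriers, 7 of 8 members were tested. With vutiglabridin 1 rose against vehicle (Slc25a13) and 2 were higher than with semaglutide (Slc25a15 and Slc25a38), and with semaglutide 0 passed against vehicle. All 7 tested members had a difference above 0 in both comparisons of vutiglabridin, from 0.07 to 0.27 against vehicle and from 0.04 to 0.40 against semaglutide. Of all 38 tested SLC25 members, 28 lay above 0 against vehicle and 26 against semaglutide. Of all 11562 genes, 6204 and 6020 did so. Rescaling to equal totals turned Slc25a12, Slc25a29 and Slc25a38 below 0 against vehicle and Slc25a12 and Slc25a13 below 0 against semaglutide, the last also under quantile normalization. Slc25a13, citrin, moves aspartate out of the matrix in exchange for glutamate and serves both the malate-aspartate shuttle and the urea cycle. It had 63.3 to 89.8 FPKM (median 81.9) in vutiglabridin livers, 66.4 to 86.6 FPKM (median 74.5) in semaglutide livers and 57.0 to 82.0 FPKM (median 63.1) in vehicle livers, so all groups overlapped. The difference from vehicle was 0.27 ± 0.08 with vutiglabridin (limma adjusted p = 0.0236) and 0.18 ± 0.08 with semaglutide (adjusted p = 0.0921). Removing the trend with GC content and length gave 0.20 (adjusted p = 0.0491) for semaglutide. The vutiglabridin call ended without vutiglabridin replicate 1 (adjusted p = 0.0536), without vehicle replicate 7 (adjusted p = 0.0514), after rescaling to equal totals (0.11, adjusted p = 0.263) and after quantile normalization (0.15, adjusted p = 0.182).

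Slc25a15, the ornithine carrier that brings the urea cycle intermediate into the matrix, averaged 66.9 ± 11.9 FPKM with vutiglabridin, 50.9 ± 11.0 FPKM with semaglutide and 57.4 ± 9.74 FPKM with vehicle (SD, n = 8 each). The difference between the drugs was 0.40 ± 0.13 (limma adjusted p = 0.0252), with all 8 vutiglabridin samples above the semaglutide mean. It was lost without vutiglabridin replicate 1 (0.34, adjusted p = 0.0575) and under both other scalings (adjusted p = 0.0805 and 0.0933). Slc25a38, which brings glycine into the matrix for heme synthesis, had 7.82 to 11.7 FPKM (median 8.76) in vutiglabridin livers, 6.36 to 8.78 FPKM (median 7.48) in semaglutide livers and 6.74 to 9.60 FPKM (median 8.265) in vehicle livers. The 2 drug groups overlapped, and their difference was 0.26 ± 0.07 (adjusted p = 0.0117), or 0.18 (adjusted p = 0.0726) after rescaling to equal totals. Slc25a22, a glutamate carrier, had means of 40.4 ± 5.32, 33.6 ± 5.40 and 35.5 ± 6.46 FPKM in the vutiglabridin, semaglutide and vehicle groups, and Slc25a44, which imports branched-chain amino acids, had 30.0 ± 5.42, 26.9 ± 5.50 and 25.7 ± 3.82 FPKM in those groups in the same order. Neither passed in any comparison, and neither did Slc25a12 (aralar) or Slc25a29, a carrier of basic amino acids.

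The carriers of iron, glutathione, vitamins, cofactors and pyrimidine nucleotides were 10 members, all tested. With vutiglabridin 0 of 10 passed against vehicle, with semaglutide 1 fell (Slc25a51), and 3 were higher with vutiglabridin than with semaglutide (Slc25a51 and Slc25a37 among them). Slc25a51 (chromosome 4, 45395923 to 45408766, minus strand, GENCODE M21 on GRCm38) carries NAD+ into mitochondria. It had 12.5 to 22.6 FPKM (median 18.9) in vutiglabridin livers, 9.40 to 12.9 FPKM (median 11.7) in semaglutide livers and 11.4 to 17.8 FPKM (median 15.2) in vehicle livers. The vehicle mean lay above all 8 semaglutide samples, and the lowest vutiglabridin sample lay within the semaglutide range. The difference between the drugs was 0.61 ± 0.11 (limma adjusted p = 0.000185), the largest in size among the 38 tested members in that comparison. Against vehicle it was -0.33 ± 0.11 with semaglutide (adjusted p = 0.0258) and 0.29 ± 0.11 with vutiglabridin (adjusted p = 0.0719).

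Slc25a37, mitoferrin-1, averaged 12.0 ± 1.71 FPKM with vutiglabridin, 9.93 ± 0.975 FPKM with semaglutide and 10.7 ± 0.739 FPKM with vehicle (SD, n = 8 each). The difference between the drugs was 0.24 ± 0.07 (limma adjusted p = 0.0154), and rescaling to equal totals lowered it to 0.16 (adjusted p = 0.176). The abundant glutathione carrier Slc25a39 differed from vehicle by 0.06 ± 0.07 with vutiglabridin (95% interval -0.08 to 0.21) and 0.07 ± 0.07 with semaglutide (-0.08 to 0.22). Removing the trend with GC content and length gave 0.16 for semaglutide (adjusted p = 0.019), and quantile normalization gave -0.16 for vutiglabridin against semaglutide (adjusted p = 0.0434). Slc25a33, a pyrimidine nucleotide carrier, had 15.0 ± 4.49, 14.4 ± 5.42 and 14.9 ± 2.51 FPKM in the vutiglabridin, semaglutide and vehicle groups, and 14.9% of its exon length overlaps an antisense gene. Slc25a26 (S-adenosylmethionine), Slc25a28 (iron), Slc25a32 (folate or FAD), Slc25a36 (pyrimidine nucleotides) and Slc25a40 also passed in no comparison.

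Relatives of the uncoupling proteins (Slc25a14, Slc25a27 and Slc25a30) were 3 tested members, and Slc25a30 was lower with vutiglabridin than with semaglutide. It averaged 8.52 ± 2.68 FPKM with vutiglabridin, 12.6 ± 3.07 FPKM with semaglutide and 10.2 ± 3.47 FPKM with vehicle (SD, n = 8 each), and the ranges overlapped. All 8 vutiglabridin samples lay below the semaglutide mean. The difference was -0.53 ± 0.18 (limma adjusted p = 0.0374), and it was -0.46 (adjusted p = 0.0781) without vutiglabridin replicate 1 and -0.48 (adjusted p = 0.0723) without vutiglabridin replicate 4.

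The last group holds 8 members with unsettled substrates or another location, of which 5 were tested. With vutiglabridin 2 rose against vehicle (Slc25a34 and Slc25a48), with semaglutide 1 rose (Slc25a46) and 1 fell (Slc25a45), and 2 were higher with vutiglabridin than with semaglutide (Slc25a45 and Slc25a34). Slc25a45 (chromosome 19, 5877808 to 5885878, plus strand, GENCODE M21 on GRCm38) had 9.98 to 15.2 FPKM (median 11.5) in vutiglabridin livers, 6.55 to 9.42 FPKM (median 8.525) in semaglutide livers and 9.15 to 11.2 FPKM (median 10.5) in vehicle livers. All 8 vutiglabridin samples lay above all 8 semaglutide samples, and the vehicle samples lay between the drug means and overlapped with both groups. The difference was 0.55 ± 0.08 between the drugs (limma adjusted p = 4.23e-05), -0.32 ± 0.08 for semaglutide against vehicle (adjusted p = 0.00701) and 0.24 ± 0.08 for vutiglabridin against vehicle (adjusted p = 0.0578). Removing the trend with GC content and length gave 0.26 (adjusted p = 0.0488) for vutiglabridin and -0.22 (adjusted p = 0.067) for semaglutide, each against vehicle. The difference between the drugs was at least 0.48 under each of the 15 alternatives.

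Slc25a34 had 2.88 to 5.97 FPKM (median 4.235) in vutiglabridin livers, 1.81 to 3.32 FPKM (median 2.625) in semaglutide livers and 2.57 to 3.72 FPKM (median 2.785) in vehicle livers. Above the vehicle mean lay 6 of 8 vutiglabridin samples, while the other 2 lay just under it and within the vehicle range. The difference was 0.39 ± 0.10 against vehicle (limma adjusted p = 0.0123) and 0.48 ± 0.10 against semaglutide (adjusted p = 0.00157), and rescaling to equal totals gave 0.31 (adjusted p = 0.0704) against vehicle. Slc25a46 lies in the outer mitochondrial membrane, where it takes part in mitochondrial dynamics. It had 7.03 to 9.95 FPKM (median 8.425) in vutiglabridin livers, 8.17 to 10.4 FPKM (median 9.635) in semaglutide livers and 6.25 to 9.22 FPKM (median 7.66) in vehicle livers. All 8 semaglutide samples lay above the vehicle mean, and the difference was 0.27 ± 0.07 (adjusted p = 0.00702). An opposite-strand gene shares 7.06% of the exon length of Slc25a46, and the sources used here do not say whether counting used the strand of the reads.

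Slc25a48, linked to choline transport, averaged 6.53 ± 1.08 FPKM with vutiglabridin, 5.62 ± 1.10 FPKM with semaglutide and 5.07 ± 0.869 FPKM with vehicle (SD, n = 8 each). All 8 vutiglabridin samples lay above the vehicle mean, with a difference of 0.31 ± 0.10 (limma adjusted p = 0.0386). The call ended without vutiglabridin replicate 1 (0.29, adjusted p = 0.0754), without vehicle replicate 3 (0.31, adjusted p = 0.0561), without vehicle replicate 7 (0.31, adjusted p = 0.0584) and after rescaling to equal totals (0.19, adjusted p = 0.177). The abundant Slc25a47 differed from vehicle by -0.18 ± 0.10 with vutiglabridin (adjusted p = 0.229) and -0.13 ± 0.10 with semaglutide (adjusted p = 0.355). After rescaling to equal totals it passed as lower with vutiglabridin, at -0.34 (adjusted p = 0.0107), and after quantile normalization at -0.37 (adjusted p = 0.0113).

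The 4 members below the filter were scarce. Slc25a35 averaged 0.385 ± 0.133 FPKM with vutiglabridin, 0.241 ± 0.155 FPKM with semaglutide and 0.421 ± 0.0931 FPKM with vehicle, and 31.3% of its exon length overlaps Rangrf on the opposite strand. With the filter dropped, Slc25a35 passed as lower with semaglutide than with vehicle (-0.20, limma adjusted p = 0.0292). That call rests on 2 to 19 implied fragments (median 9) in semaglutide libraries and 18 to 46 (median 19) in vehicle libraries. Slc25a53 averaged 0.239 ± 0.1 FPKM with vutiglabridin, 0.284 ± 0.0555 FPKM with semaglutide and 0.289 ± 0.0786 FPKM with vehicle (SD, n = 8 each). Slc25a2, a second ornithine carrier, and Slc25a43 rested on at most 6 and 11 implied fragments in any library. Slc25a2 was listed at 0 in 1 vutiglabridin sample, 3 semaglutide samples and 0 vehicle samples, and Slc25a43 in 3 vutiglabridin, 2 semaglutide and 2 vehicle samples.

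Of 6 listed family genes outside the rule, 4 were tested (Ucp2, Mtch1, Mtch2 and Slc25a20). Ucp2, an uncoupling protein that is abundant in macrophages as well, fell with both drugs. It averaged 6.89 ± 1.41 FPKM with vutiglabridin, 7.75 ± 1.43 FPKM with semaglutide and 11.7 ± 2.19 FPKM with vehicle (SD, n = 8 each), with differences of -0.68 for vutiglabridin and -0.53 for semaglutide (limma adjusted p = 0.000319 and 0.0012). Mtch2, an insertase of the outer membrane, rose with vutiglabridin by 0.19 (adjusted p = 0.0187), and Slc25a20 passed in no comparison.

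Of 20 other tested genes of mitochondrial membrane transport, 2 rose (10%, Vdac1 and Sfxn2) and 1 fell (5%) with vutiglabridin. With semaglutide 1 rose (5%) and 3 fell (15%, Micu2 and Letm1 among them). Between the drugs, 3 were higher (15%) and 1 lower (5%) with vutiglabridin. Of all genes tested, 6.53% rose and 8.78% fell with vutiglabridin, and 14.3% rose and 12.7% fell with semaglutide. Between the drugs, 11.9% of all genes were higher and 12.6% lower with vutiglabridin. Vdac1, the outer membrane pore, rose by 0.18 with vutiglabridin (limma adjusted p = 0.00798), and Micu2, a regulator of calcium uptake, fell by 0.38 with semaglutide (adjusted p = 0.00155). Of 15 tested genes of the import pathway that inserts the carriers, 1 fell (6.67%, Tomm40l) and 0 rose with vutiglabridin. With semaglutide 1 rose (6.67%, Tomm70a, a receptor for carrier precursors) and 1 fell (6.67%, Timm22, the insertion pore). Each of these shares of the import genes against vehicle lay below that of all genes. Between the drugs, 2 import genes were higher (13.3%) and 1 lower (6.67%) with vutiglabridin. The share of higher import genes there lay slightly above the 11.9% of all genes. Tomm70a averaged 13.7 ± 1.84 FPKM with vutiglabridin, 16.4 ± 1.50 FPKM with semaglutide and 12.5 ± 1.32 FPKM with vehicle, and Timm22 averaged 4.44 ± 0.444 FPKM with vutiglabridin, 3.92 ± 0.442 FPKM with semaglutide and 4.90 ± 0.391 FPKM with vehicle. Their differences between semaglutide and vehicle were 0.37 and -0.26 (adjusted p = 0.000547 and 0.00229).

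Enzymes that use or supply the substrates of the carriers were 17 genes, all tested, of the malate-aspartate and glycerol phosphate shuttles, the urea cycle, gluconeogenesis, citrate cleavage and the breakdown of glutamine and glutamate. With vutiglabridin 7 rose (41.2%) and 0 fell against vehicle, where 6.53% of all genes tested rose and 8.78% fell. With semaglutide 2 rose (11.8%, Glud1 and Cps1) and 1 fell (5.88%, Pcx), where 14.3% of all genes rose and 12.7% fell. Between the drugs, 6 were higher (35.3%) and 2 lower (11.8%) with vutiglabridin, where 11.9% of all genes were higher and 12.6% lower. After rescaling to equal totals the vutiglabridin count against vehicle was 3 higher and 4 lower, where 233 of all genes were higher and 2731 lower. After quantile normalization it was 1 higher and 1 lower, where 538 of all genes were higher and 848 lower. At most 1 of Asl, Arg1 and Mdh1, given next as deposited, thus passed as higher after quantile normalization. Asl, argininosuccinate lyase, averaged 117 ± 13.9 FPKM with vutiglabridin, 80.1 ± 8.74 FPKM with semaglutide and 83.0 ± 12.2 FPKM with vehicle (SD, n = 8 each), a difference from vehicle of 0.49 with vutiglabridin (limma adjusted p = 0.000821). Arg1, arginase, averaged 655 ± 141 FPKM with vutiglabridin, 441 ± 58.4 FPKM with semaglutide and 457 ± 64.9 FPKM with vehicle, with a vutiglabridin difference of 0.50 (adjusted p = 0.00406). Mdh1, the cytosolic malate dehydrogenase, averaged 279 ± 13.0 FPKM with vutiglabridin, 230 ± 21.7 FPKM with semaglutide and 237 ± 19.5 FPKM with vehicle, with a vutiglabridin difference of 0.24 (adjusted p = 0.0103).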

How the data were processed

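The authors deposited FPKM values, 1 for each gene in each sample, from stranded mRNA libraries, per the labels' protocols. The submitters' processing notes name HISAT2, StringTie and DESeq2. Their versions and roles, the build and any filter on genes were not given in the sources used here. FPKM values are not counts, so a count test was not used. All 14293 rows matched GENCODE M21 (GRCm38) by identifier and symbol, which gave exon lengths and overlaps.

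Values entered as log2(FPKM + 1), and genes that reached 0.5 FPKM in 8 or more samples were kept. A single linear model of the group was fitted to the 24 samples with limma 3.58.1 (R 4.3.3), and its moderated 2-sided test allowed the variance to follow the mean. Adjustment followed Benjamini and Hochberg over all 11562 genes within each comparison, with a threshold of 0.05. The scripts were tested on simulated data. Python 3.11.15 with pandas 2.3.3 served for summaries. Depth was read from genes of at most 1500 bp of exons, within 0.15 of a whole fragment, and rests on GENCODE lengths. FPKM keep no count, so intervals cover the spread between samples only.

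Named with values were members called in any comparison or with a vehicle mean of at least 10 FPKM. The 6 members with the lowest p per comparison have their sample ranges shown, as have Slc25a3, Slc25a13 and Slc25a25, picked after their values were seen. Other low members named and the 4 genes with sequence were also picked then. The values of 1 tested member and of 2 other transport genes are not reported here, though they enter the counts. Members and gene lists were chosen with earlier results of these data known. Alternatives were pseudocounts of 0.1 and 0.5, the filter dropped or set to an average of 1 FPKM, equal totals per library, quantile normalization, a fit to the 2 groups of a comparison alone, a block for the replicate number, a correction for GC content and exon length (splines with 5 degrees of freedom), both of these together, and omission of vutiglabridin replicate 7. Omission of vutiglabridin replicates 1 and 4 and vehicle replicates 3 and 7 was chosen after seeing the data. Promoter sequences are from RefSeq on GRCm38.p6, matched by symbol.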

Additional observations from a re-analysis of the deposited data

Results flagged for a closer look

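In 5 of 111 sets of 8 samples (37 tested members in 3 groups), the highest or lowest sample stood apart, with a gap to its nearest neighbour, relative to the whole range of its group, above the critical value of Dixon's test. Chance alone gives about 1 in 20 such sets, so this number is near what chance gives. With vutiglabridin, Slc25a17 was 30.69 FPKM in replicate 1 (next 25.71), Slc25a28 was 8.08 FPKM in replicate 4 (next 6.53), and Slc25a39 was 189.34 FPKM in replicate 4 (next 150.59). With vehicle, Slc25a4 was 9.55 FPKM in replicate 7 (next 6.82), and Slc25a15 was 36.44 FPKM in replicate 7 (next 54.12).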

How the results depend on the processing

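Rescaling to equal totals gave 0 members higher and 5 lower for vutiglabridin against vehicle, with 233 of all genes higher and 2731 lower, and turned the log2 difference of Slc25a3 to -0.027 there. It gave 1 member higher and 7 lower for semaglutide against vehicle, with 1202 of all genes higher and 2116 lower. For vutiglabridin against semaglutide it gave 5 members higher and 3 lower, with 596 of all genes higher and 2264 lower. Quantile normalization gave 2 members higher and 4 lower for vutiglabridin against vehicle, with 538 of all genes higher and 848 lower. Removing the trend with GC content and exon length gave 5 members higher for semaglutide against vehicle, with 1621 of all genes higher. That removal turned Slc25a40 to -0.15 in this comparison (adjusted p = 0.0396 in limma). Rank correlations across the 11562 genes of the difference with GC content and exon length were -0.066 and -0.0155 for vutiglabridin against vehicle, -0.303 and 0.272 for semaglutide against vehicle, and 0.254 and -0.291 between the drugs. The fit to only the 2 groups compared gave 7 members lower for semaglutide against vehicle, with 1642 of all genes lower. Lower members between the drugs numbered 1 in place of 2 with no filter, with only the 2 groups, and with the GC and length trend removed. Of all genes, 1624, 1256 and 1353 were lower in these settings in the same order, in place of 1454. Leaving out 1 library gave 4 to 7 members higher for vutiglabridin against vehicle, 1 to 3 higher for semaglutide against vehicle, and 0 to 2 lower between the drugs. The counts of all genes were 531 to 810, 1479 to 1737 and 1306 to 1450 in the same order. The causes were not tested. Pseudocounts and the stricter filter changed no member call.

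The replicate numbers were not taken to pair the samples, since nothing in the labels says that equal numbers share an animal, cage or batch. Deviations of same-numbered samples correlated between -0.12 and 0.28 for vutiglabridin and vehicle (median 0.15, against -0.014 for other numbers), and 2 of 8 samples correlated best with their own number. The same-number median was -0.037 for semaglutide and vehicle and -0.039 for the 2 drugs. In each of these, 1 of 8 samples correlated best with its own number. With the replicate number as a block, Slc25a3 and Slc25a48 lost their calls for vutiglabridin against vehicle (limma adjusted p = 0.0502 and 0.0555). Lower members between the drugs then numbered 1, with 1403 of all genes lower. With the GC and length trend removed as well, they also numbered 1, with 1350 of all genes lower. In that setting 5 members were higher for semaglutide against vehicle, with 1623 of all genes higher.

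Depth limits Slc25a2 and Slc25a43, with at most 6 and 11 implied fragments in a library. It also limits Slc25a35, with 2 to 19 implied fragments in the semaglutide libraries.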
